A study of Mus musculus with 13 samples.

Results

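The genes of the proteasome were followed across 13 two-colour arrays that set mouse RNA sources named NT1 against sources named TBV. Members were all genes whose probes carried exactly 1 gene symbol beginning with Psma to Psmg and a number, which gave 43 genes and 49 probes among 9669 genes named this way. By symbol, 16 belonged to the 20S core, 17 to the 19S base and lid, and 8 to the activators, the inhibitor and the assembly chaperones. The remaining 2, Psmc3ip and Psme3ip1, share the naming pattern but encode proteins that bind proteasome components or were named for such binding, and they were kept out of the classes. Of 51 protein-coding mouse genes with such symbols in the reference, 8 had no probe with a single symbol and were not analysed here: Psma3, Psma8, Psmb9, Psmd12, Psmd3, Psmd9, Psme2b and Psmg3.

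The proteasome is the cell's main machine for degrading proteins tagged with ubiquitin. Its 20S core is a barrel of stacked alpha and beta rings, with the alpha rings forming the gate and the beta rings carrying the protease sites. The 19S particle caps the barrel: its ring of ATPases unfolds the substrate, and its other subunits recognise and remove ubiquitin. Subunit genes are known to be transcribed together in step with demand, and embryonic stem cells are known for high proteasome activity.

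NT1 and TBV RNA came from 4 source pairs. NT1p14/TBVp13 was hybridised on 5 arrays, NT1p12/TBVp12 on 4, NT1 1/TBV2 on 2 and NT1p12/TBVp13 on 2, and the number after p was read as a passage. The series title places a homozygous Sall4 mutation beside NT1. No genotype for TBV, tissue, cell type, sex, age or treatment is given in the sources used here, and nothing says that the sources were separate lines or clones. NT1 was labelled with Cy5 on 7 arrays and TBV on 6, so that each pair held both dye orientations. NT1p12/TBVp13 shares both of its sources with other pairs, which leaves 3 independent pairs, and repeat arrays of a pair are technical repeats. P-values therefore measure the spread between these preparations and hybridisations.

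All values are treated as log2 ratios and were turned to NT1 over TBV, so a value above 0 means more signal from NT1. The log base, the channel in the numerator and the normalisation within arrays are not given in the sources used here, so the direction of all signs together is unsettled. The direction of single pairs is unsettled too. Arrays of NT1p14/TBVp13 and NT1p12/TBVp12 in the same dye orientation correlated between -0.36 and 0.24 over all probes, and 3 of these 10 correlations were below -0.3. The comparisons over pairs and between pairs are therefore also given with the sign of a pair turned. Turning a pair changes only the sign of the values within it. Many values have lost their decimals: 25 of the 49 proteasome probes held whole numbers, and whole numbers made up 37.0% of the proteasome values in NT1p14/TBVp13, 20.6% in NT1p12/TBVp12, 3.26% in NT1 1/TBV2 and 51.1% in NT1p12/TBVp13. A listed 0 or 1 on such an array stands for a range of ratios. The title gene Sall4 had ratios of 0.07, -0.59 and -0.32 in the 3 independent pairs, and whether its probe lies in the mutated part of the gene is not known here. Arrays held values for 14314 to 18381 probes. In bulk RNA such as this, fewer cells of a type and less RNA per cell cannot be told apart.

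Promoters are shown for some of the members that differed between source pairs. Windows of 250 bases before the annotated start were taken from RefSeq (GRCm38.p6). They were found for 37 of the 43 genes (41 windows) and were not found for Psmb1, Psmb2, Psmb7, Psmc3, Psmd7 and Psmg2. The first 4 belong to members called higher in NT1p14/TBVp13 than in NT1p12/TBVp12. They were picked for holding the core motif of ETS factors, CCGGAA, and have the largest differences among such members with a single window. Because the motif was part of this choice, the windows printed do not compare it between directions. The last 2 belong to the only members called lower there. Capitals mark CCGGAA and CCAAT, the box bound by NF-Y, on either strand. In genome order the windows are chr3:95042615-95042864 on the minus strand for Psmd4, chr9:54950609-54950858 on the plus strand for Psma4, chr11:80428365-80428614 on the plus strand for Psmd11, chr14:14120946-14121195 on the minus strand for Psmd6, chr14:45329574-45329823 on the plus strand for Psmc6 and chr17:34197945-34198194 on the plus strand for Psmb8.
Psmd4: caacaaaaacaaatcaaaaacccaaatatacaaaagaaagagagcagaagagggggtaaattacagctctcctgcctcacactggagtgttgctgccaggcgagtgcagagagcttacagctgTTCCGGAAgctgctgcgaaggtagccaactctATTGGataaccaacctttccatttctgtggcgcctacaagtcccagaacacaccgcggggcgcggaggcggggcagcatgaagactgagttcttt
Psmd6: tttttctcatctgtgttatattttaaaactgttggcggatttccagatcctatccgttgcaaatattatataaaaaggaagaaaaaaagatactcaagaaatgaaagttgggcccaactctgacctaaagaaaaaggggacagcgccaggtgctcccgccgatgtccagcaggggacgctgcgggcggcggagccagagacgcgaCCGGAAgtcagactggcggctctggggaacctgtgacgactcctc
Psmd11: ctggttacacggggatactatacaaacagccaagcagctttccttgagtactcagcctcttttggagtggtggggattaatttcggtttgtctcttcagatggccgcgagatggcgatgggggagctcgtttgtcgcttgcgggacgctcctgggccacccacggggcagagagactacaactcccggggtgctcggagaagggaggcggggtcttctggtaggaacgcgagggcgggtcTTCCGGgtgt
Psmc6: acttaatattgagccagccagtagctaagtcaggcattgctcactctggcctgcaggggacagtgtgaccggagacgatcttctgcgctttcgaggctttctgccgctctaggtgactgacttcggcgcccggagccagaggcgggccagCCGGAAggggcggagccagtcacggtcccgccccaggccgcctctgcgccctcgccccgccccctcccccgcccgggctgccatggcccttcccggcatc
Psma4: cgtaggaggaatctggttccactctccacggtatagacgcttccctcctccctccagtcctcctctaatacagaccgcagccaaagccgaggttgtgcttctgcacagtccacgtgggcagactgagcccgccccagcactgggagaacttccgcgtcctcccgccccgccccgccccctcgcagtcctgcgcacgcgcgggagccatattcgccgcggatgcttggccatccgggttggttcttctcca
Psmb8: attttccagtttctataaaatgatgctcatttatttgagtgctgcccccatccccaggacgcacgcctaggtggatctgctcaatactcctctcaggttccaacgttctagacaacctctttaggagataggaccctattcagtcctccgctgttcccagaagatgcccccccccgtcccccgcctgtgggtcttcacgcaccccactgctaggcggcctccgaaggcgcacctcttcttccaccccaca

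In Psmd4, which encodes a ubiquitin receptor, CCGGAA lay 127 and 125 bases before the start, overlapping on opposite strands, with a reversed CCAAT at 95 bases. The match lay 45 bases before the start of Psmd6, a lid subunit, 10 bases before that of Psmd11, a lid subunit, and 100 bases before that of Psmc6, an ATPase. The windows of Psma4 and Psmb8 held neither CCGGAA nor CCAAT. On either strand, CCGGAA was found in 18 of the 41 proteasome windows (43.9%), against 12% of all 32817 windows and 20% of the 8216 windows of genes tested here. This is a description of the letters in these windows, given without a test. By outcome, 6 of the 13 genes with a window that were called higher in NT1p14/TBVp13 held it, as did 0 of the 2 called lower and 9 of the 15 without a call.

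The other motifs searched on both strands were close to the tested genes in their share or rare. CCAAT was in 34.1% of the proteasome windows and 34.1% of the windows of tested genes. GGGCGG, the Sp1 box, was in 51.2% and 54.4%. TGACNNNGC, the core of the antioxidant response element that Nfe2l1 and Nfe2l2 can bind, was in 7.32% (Psmb5, Psmb6 and Psmc6) and 11.7%. The palindrome of nuclear respiratory factor Nrf1 was in 1 window, that of Psma2, which is 2.44% of the proteasome windows against 1.35%.

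NT1 was first set against TBV over the 3 independent source pairs. No proteasome gene differed beyond the spread between pairs: limma called 0 of the 35 members with a value in all 3 pairs at an adjusted p under 0.05, where the percentage called among all 7968 genes was 0. At an unadjusted p under 0.05 there was 1 member, Psme1, where 1.14% of all genes passed. The median ratio of the 35 members was 0.02, with 20 above 0 and 15 below, beside a median of 0.00 over all genes. By class the medians were 0.05 for 11 genes of the 20S core, -0.01 for 16 of the 19S particle and 0.20 for 6 activators, inhibitor and chaperones. Behind these central values lay opposite signs. The members' median was 0.38 in NT1p14/TBVp13, -0.20 in NT1p12/TBVp12 and 0.04 in NT1 1/TBV2, with 24, 8 and 21 of the 35 above 0.

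**Figure D1:**
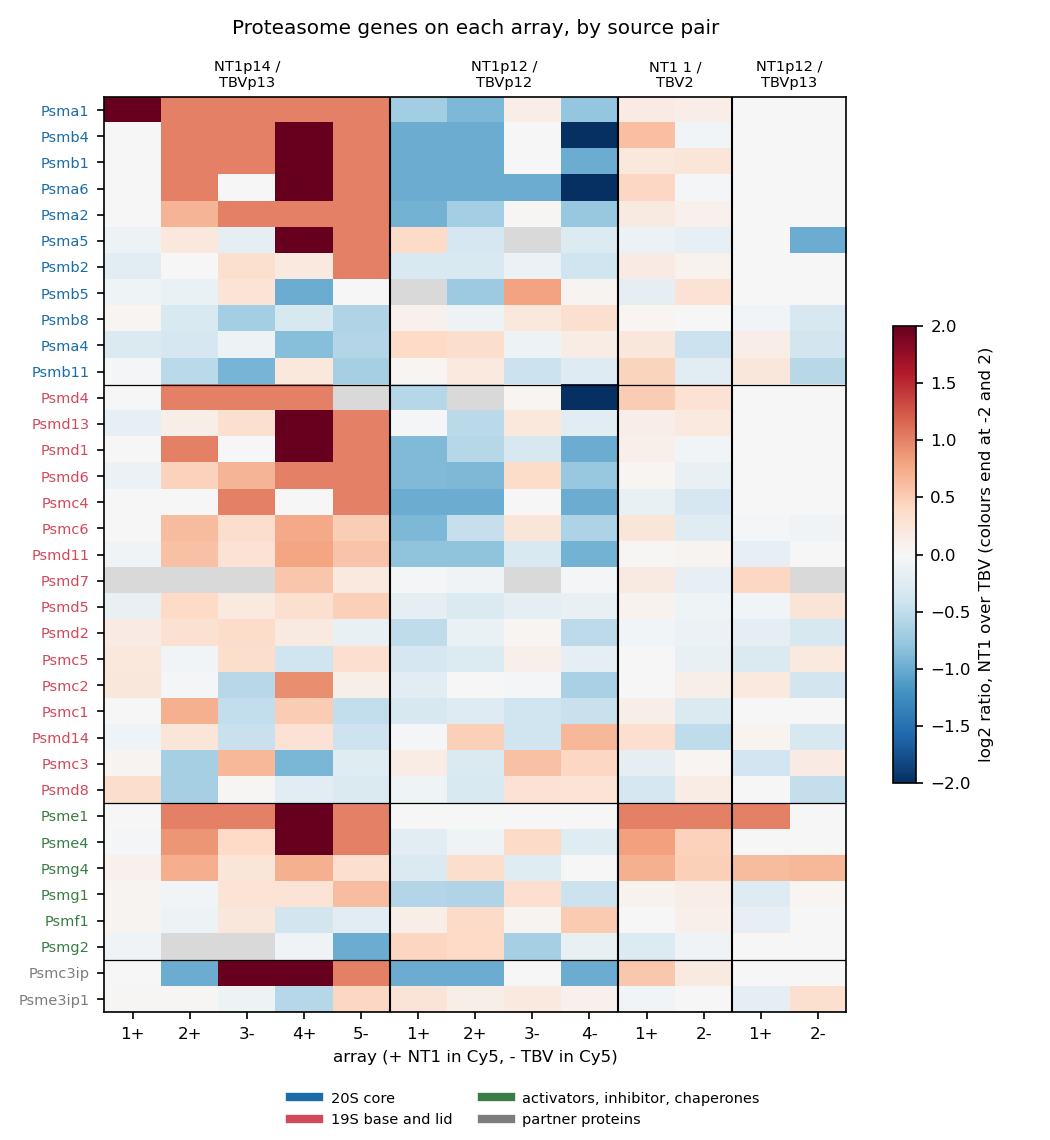
Log2 ratio of NT1 over TBV (colour) of the 35 proteasome genes tested (rows, grouped by class, gene names coloured by class) on each of the 13 arrays (columns, grouped by source pair). Grey cells have no value. Most 20S and 19S genes are above 0 on the NT1p14/TBVp13 arrays from array 2 on and below 0 on NT1p12/TBVp12 arrays 1, 2 and 4, and many NT1p12/TBVp13 values are listed at 0.

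Psme1, a subunit of the interferon-inducible activator ring that opens the core without ATP, had the smallest p on the higher side. Its values on the 5 NT1p14/TBVp13 arrays were 0, 1, 1, 2 and 1, on the 4 NT1p12/TBVp12 arrays 0 throughout, and on the 2 NT1 1/TBV2 arrays 1 and 1. No listed value was below 0, but all 13 were whole numbers, and the ratios behind the listed zeros may lie on either side of 0. The mean was 0.67 ± 0.58 (SD, n = 3 pairs), with an unadjusted limma p of 0.037 and an adjusted p of 1.00. With the sign of NT1p14/TBVp13 or of NT1 1/TBV2 turned the mean was at 0.00.

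Psme4, a large activator of a single chain, had ratios of 0.82, -0.04 and 0.64 in NT1p14/TBVp13, NT1p12/TBVp12 and NT1 1/TBV2. Its mean was 0.48 ± 0.45 (SD, n = 3). Psmg4, a chaperone of alpha ring assembly, had 0.40, -0.04 and 0.59, with a mean of 0.32 ± 0.33 (SD, n = 3). Both NT1p12/TBVp13 arrays put it above 0 as well, at 0.63 and 0.66. On the lower side the smallest p belonged to Psmg2, which pairs with Psmg1 in a chaperone of the alpha ring, with -0.54, 0.00 and -0.17 and a mean of -0.23 ± 0.28 (SD, n = 3). In arrays with NT1 in Cy5 only the mean of Psmg2 was 0.02, and in those with TBV in Cy5 only it was -0.49.

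Psmc1, an ATPase of the 19S ring, was the only member with the same sign in all 3 pairs, at -0.05, -0.36 and -0.08. Its mean was -0.16 ± 0.17 (SD, n = 3), and its 2 probes differed: 1 had -0.43, 0.04 and -0.18, and the other 0.33, -0.76 and 0.01. The mean of Psmc1 was 0.08 in arrays with NT1 in Cy5 only and -0.40 in those with TBV in Cy5 only. In all, 5.45% of all genes were below 0 in every pair and 8.95% above.

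With the sign of a pair turned, still 0 of 35 members were called by limma in each of the 3 fits. Turning NT1p12/TBVp12 gave 26 members above 0, a median of 0.23, 16 members above 0 in all 3 pairs (18.9% of all genes were), 6 below 0 in all 3 (21.6% of all genes) and 12 at an unadjusted p under 0.05, where 12.2% of all genes passed, with 0.40 as the smallest adjusted p of a member. Turning NT1p14/TBVp13 gave 23 members below 0, a median of -0.16, and 7 below 0 in all 3 pairs, where 16.2% of all genes were: Psma5, Psmc4, Psmc5, Psmc6, Psmd2, Psmd5 and Psmd6. Turning NT1 1/TBV2 gave 17 above and 18 below, a median of 0.00. As given, 20 of 35 members lay above 0, and this count moved with the signs taken. NT1p14/TBVp13 had the members' median farthest from 0, so a shift of the means when it is turned follows by construction.

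The second comparison asked whether the ratio of NT1 over TBV differed between NT1p14/TBVp13 and NT1p12/TBVp12, the pairs with the most repeat arrays. Many core and cap genes had a higher ratio in the former: limma on all 13 arrays, with 1 dye term, called 14 of 34 members higher in NT1p14/TBVp13 (41.2%), where 13.8% of 7264 genes were, and 2 of 34 lower (5.88%), where 11.9% were. The 14 were Psma1, Psma2, Psma6, Psmb1 and Psmb4 of the core, Psmc4, Psmc6, Psmd1, Psmd4, Psmd5, Psmd6 and Psmd11 of the 19S class, and Psme1 and Psmg1. The 2 lower ones were Psma4 and Psmb8, both of the core. The median difference of the 34 members was 0.57, against 0.02 over all genes. These calls were tested only against the spread between repeat arrays of the same RNA sources, and they have limits in the fit and in the signs. With a dye term for each source pair no member was called (0 of 34, smallest adjusted p = 0.057, with 8 of 7264 genes higher and 1 lower), although 25 members still had a difference above 0 and the members' median was 0.59. With the sign of NT1p12/TBVp12 turned, the difference becomes a sum: 0 members were called (5 of 7264 genes higher and 18 lower), 17 of 34 were above 0 and the median was 0.01.

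**Figure D2:**
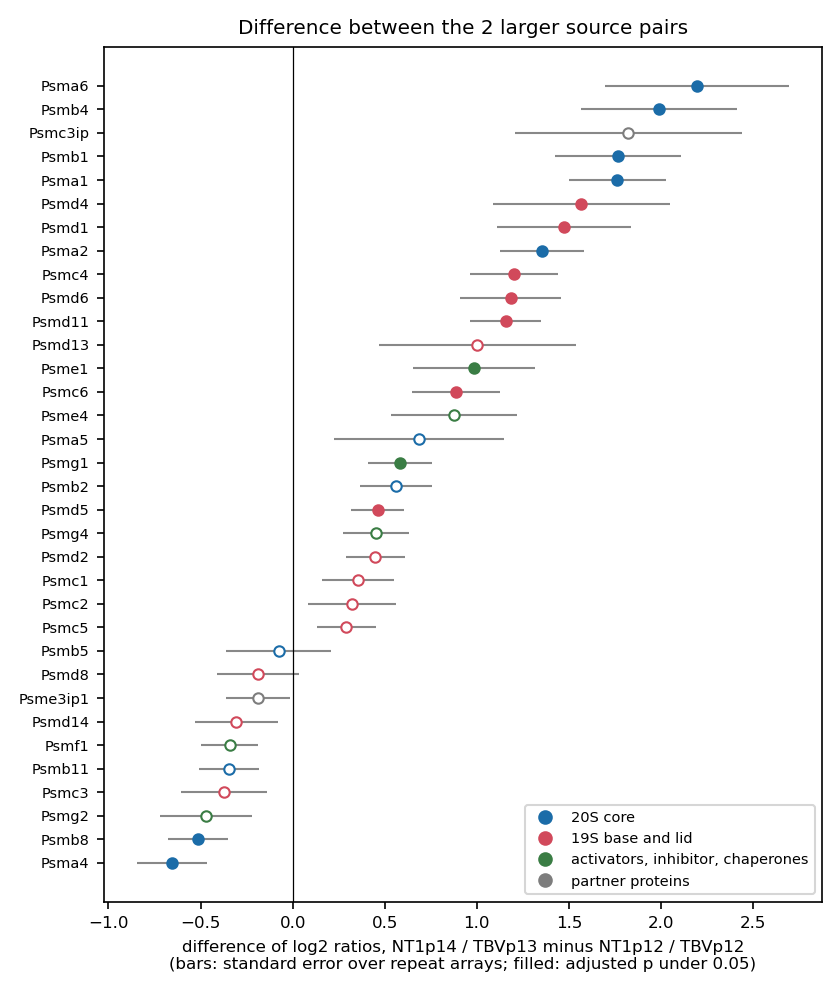
Difference of the log2 ratio of NT1 over TBV between NT1p14/TBVp13 and NT1p12/TBVp12 (x axis) for the 34 proteasome genes tested over arrays (rows), coloured by class, with bars of 1 standard error over repeat arrays. Filled points have an adjusted p under 0.05 with 1 dye term: 14 lie right of 0, up to 2.20 for Psma6, and 2 left of it, down to -0.66 for Psma4.

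The counts by class below stand beside the same shares over all genes, 13.8% higher and 11.9% lower. In the alpha ring, 3 of 5 genes were higher, 1 was lower and 1 was not called, with a median difference of 1.35. Psma6 stood at 0, 1, 0, 3 and 1 on the NT1p14/TBVp13 arrays and at -1, -1, -1 and -2 on the NT1p12/TBVp12 arrays. The groups did not overlap as listed, in whole numbers, and the difference was 2.20 (SE 0.50, limma adjusted p = 0.017). Psma1 stood at 2, 1, 1, 1 and 1 against -0.70, -0.90, 0.13 and -0.77, again without overlap, a difference of 1.76 (SE 0.26, adjusted p = 0.0093). Psma2 stood at 0.01, 0.68, 1, 1 and 1 against -0.95, -0.67, 0.03 and -0.75. Its lowest value in the first group, on array 1, lay just under the highest of the second, on array 3, and the difference was 1.35 (SE 0.23, adjusted p = 0.0093).

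Psma4, also an alpha ring subunit, went the other way. Its values were -0.29, -0.33, -0.11, -0.85 and -0.58 against 0.40, 0.35, -0.10 and 0.15, all with decimals. Every NT1p14/TBVp13 array lay below every NT1p12/TBVp12 array, narrowly at the nearest, and the difference was -0.66 (SE 0.19, adjusted p = 0.031). For Psma5 the values were -0.11, 0.21, -0.19, 2 and 1 against 0.38, -0.34 and -0.27, with 1 array without a value. They overlapped, and the difference of 0.68 (SE 0.46) did not pass (adjusted p = 0.28).

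The beta ring was mixed. Of 6 genes tested 2 were higher and 1 was lower, with a median difference of 0.24. Psmb4, a structural beta subunit, stood at 0, 1, 1, 2 and 1 against -1, -1, 0 and -2, a difference of 1.99 (SE 0.42, adjusted p = 0.015). Psmb1, another structural subunit, had the same values in the first group and -1, -1, 0 and -1 in the second, a difference of 1.77 (SE 0.34, adjusted p = 0.012). In each, array 1 of the first group and array 3 of the second were listed at 0 and touched. Psmb2, a structural subunit with an estimate of 0.56 (SE 0.20), missed the threshold at an adjusted p of 0.055.

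Of the catalytic subunits, Psmb5, which carries the chymotrypsin-like site, had values of -0.08, -0.14, 0.28, -1 and 0 against -0.73, 0.81 and 0.06. They overlapped throughout, and the difference was -0.08 (SE 0.29, adjusted p = 0.85). Psmb8 is the interferon-inducible subunit that takes the place of Psmb5 in the immunoproteasome. It stood at 0.05, -0.30, -0.68, -0.32 and -0.60 against 0.09, -0.11, 0.21 and 0.32, so that all but 1 of the first group lay below the second, and the difference was -0.51 (SE 0.16, adjusted p = 0.042). No test compared Psmb8 with Psmb5. Psmb11, the subunit known from the thymus, had a difference of -0.34 (SE 0.16, adjusted p = 0.13). It was the only member called for the dye, at 0.31 (SE 0.07, adjusted p = 0.043), where 1.29% of genes were called higher in Cy5 and 1.71% lower, with 0 members among the latter. Leaving out any array but array 4 of NT1p14/TBVp13 ended that call.

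The remaining catalytic subunits lacked a value in some dye orientation of a pair and were outside the main fit. Psmb6, the constitutive caspase-like subunit, had 9 values from -0.56 to 0.42. In a fit of every gene that can be fitted its difference was -0.68 (SE 0.28, limma adjusted p = 0.13). Psmb7, the constitutive trypsin-like subunit, was listed on 2 arrays, at -2 on array 1 of NT1p12/TBVp12 and 1 on array 1 of NT1p12/TBVp13. Psmb10, its inducible counterpart, was listed on 4 arrays from -0.38 to 0.33. Psma7, an alpha subunit, had 3 values of -1, 4 and -1, and Psmb3, a beta subunit, had 3 from -0.39 to 0.01.

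Among the 6 ATPases of the 19S ring, 2 were higher and 0 lower, with a median difference of 0.34. Psmc4 stood at 0, 0, 1, 0 and 1 in NT1p14/TBVp13 and at -1, -1, 0 and -1 in NT1p12/TBVp12. The groups met at 0, where array 3 of the second stood, and the difference was 1.20 (SE 0.24, adjusted p = 0.013). Psmc6, with decimals on every array, stood at 0.01, 0.63, 0.35, 0.76 and 0.49 against -0.89, -0.47, 0.24 and -0.62. Array 3 of the second group overlapped the first, and the difference was 0.89 (SE 0.24, adjusted p = 0.025). The other 4 had differences of 0.36 (Psmc1), 0.32 (Psmc2), 0.29 (Psmc5) and -0.37 (Psmc3), none past the threshold.

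The non-ATPase members of the 19S class had a median difference of 1.00, and 5 of 9 were higher with 0 lower. Psmd11, a lid subunit, stood at -0.06, 0.58, 0.29, 0.78 and 0.58 against -0.80, -0.80, -0.31 and -0.95. The arrays did not overlap, and the difference was 1.16 (SE 0.19, adjusted p = 0.0093). Its 2 probes had like ratios in NT1p12/TBVp12, at -0.68 and -0.75, and unlike ones in NT1p14/TBVp13, at 0.03 and 0.83. Psmd1, the scaffold of the base, stood at 0, 1, 0, 2 and 1 against -0.88, -0.56, -0.32 and -1, without overlap as listed, although its listed zeros stand for a range that may reach -0.32, a difference of 1.47 (SE 0.36, adjusted p = 0.021).

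Psmd6, a lid subunit, stood at -0.11, 0.46, 0.68, 1 and 1 against -0.88, -0.90, 0.37 and -0.76, a difference of 1.18 (SE 0.28, adjusted p = 0.018). Only array 3 of the second group reached into the first. Among the receptors of ubiquitin, Psmd4 stood at 0, 1, 1 and 1 against -0.56, 0.04 and -2, with 1 array of each pair without a value. They overlapped at 0 and 0.04, and the difference was 1.57 (SE 0.48, adjusted p = 0.042). Psmd2, the docking subunit of the base, had a difference of 0.45 (SE 0.16, adjusted p = 0.059).

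The deubiquitinase of the lid, Psmd14, stood at -0.07, 0.25, -0.44, 0.29 and -0.42 against -0.02, 0.48, -0.40 and 0.67, an overlap over most of the range and a difference of -0.31 (SE 0.22, adjusted p = 0.32). Psmd13, a lid subunit, had a difference of 1.00 (SE 0.53, adjusted p = 0.17), with 3 on array 4 of NT1p14/TBVp13 and the other arrays of that pair between -0.16 and 1. Psmd8, also of the lid, was at -0.19 (SE 0.22). Psmd7, likewise of the lid, had ratios of 0.38, -0.04 and 0.01 over pairs and, in the wider fit of every gene that can be fitted, a difference of 0.46 (SE 0.20, adjusted p = 0.16).

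The chaperones of the 19S base have Psmd symbols. Psmd5 stood at -0.15, 0.40, 0.19, 0.32 and 0.48 against -0.19, -0.29, -0.18 and -0.15 in the probe tested, without overlap, though array 1 of the first group lay close to the second. Its difference was 0.46 (SE 0.15, adjusted p = 0.040). A further probe of Psmd5 had 4 values, 2 of them whole numbers, and was outside the main fit. Its ratio in NT1p12/TBVp12 was -3.96, where the probe tested had -0.20. It entered only the fit of every gene that can be fitted. Psmd10 was listed on 8 arrays, outside the main fit. It was at 0 on array 1 of NT1p14/TBVp13, at -0.44, -0.89 and -2 on 3 arrays of NT1p12/TBVp12, at -0.28 and -0.81 in NT1 1/TBV2 and at 0 and -1 in NT1p12/TBVp13. No array listed it above 0, and in the fit of every gene that can be fitted its difference was 0.78 (SE 0.36, adjusted p = 0.17).

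Of the activators, inhibitor and chaperones of the core, 2 of 6 were higher and 0 lower, with a median difference of 0.52. Psme1, with the values given above, had a difference of 0.98 (SE 0.33, adjusted p = 0.048). Its groups of arrays met at 0. Psme4 stood at -0.03, 0.88, 0.39, 2 and 1 against -0.20, -0.09, 0.39 and -0.25, and its difference of 0.88 (SE 0.34) did not pass (adjusted p = 0.078). Psme2, the partner of Psme1 in the activator ring, was listed on 9 arrays from -0.93 to 0.52. Psme3, the nuclear activator, was listed on 8, with 3 on array 4 of NT1p14/TBVp13 and the others from -0.55 to 0.14. Neither was in the main fit, and in the wider fit their differences were 0.13 (SE 0.46, adjusted p = 0.85) and 1.67 (SE 0.88, adjusted p = 0.22).

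The inhibitor Psmf1 had a difference of -0.34 (SE 0.15, adjusted p = 0.12), and its 2 probes stood at -0.43 and 0.30 in NT1p14/TBVp13. Psmg1, a chaperone of the alpha ring, stood at 0.05, -0.05, 0.27, 0.27 and 0.61 against -0.58, -0.60, 0.34 and -0.43, a difference of 0.58 (SE 0.17, adjusted p = 0.034). Array 3 of the second group lay within the first. Its partner Psmg2 went to -0.47 (SE 0.25, adjusted p = 0.18), and Psmg4 to 0.45 (SE 0.18, adjusted p = 0.081), neither past the threshold. Of the genes named for partner proteins, Psmc3ip, which acts in meiotic recombination, had 1.82 (SE 0.62) and missed the threshold at an adjusted p of 0.0504, and Psme3ip1 had -0.19 (SE 0.18).

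**Figure D3:**
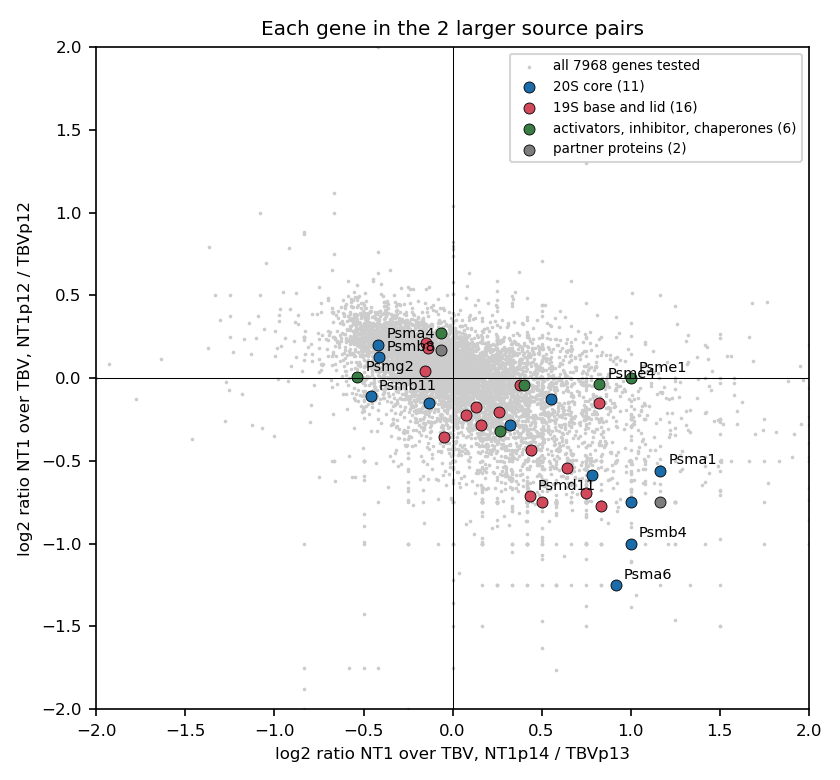
Log2 ratio of NT1 over TBV of each gene in NT1p14/TBVp13 (x axis) and in NT1p12/TBVp12 (y axis), with all 7968 genes tested in grey and the 35 proteasome genes coloured by class. Most members lie to the lower right, with Psma4 and Psmb8 at the upper left of the origin and Psme1 on the horizontal line at 0, and 68 genes, none of them members, lie beyond the axes, which end at -2 and 2.

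Repeat arrays tell how evenly the 16 calls are carried. In 5 of 34 members (14.7%) every NT1p14/TBVp13 array was listed above every NT1p12/TBVp12 array, namely Psma1, Psma6, Psmd1, Psmd5 and Psmd11, where 8.49% of all genes did. In 1 member, Psma4, every array lay below, where 6.31% did. Array 3 of NT1p12/TBVp12 stood apart from the other 3 of its pair, with a members' median of 0.00 against -0.34 to -0.30, and array 1 of NT1p14/TBVp13 had a members' median of 0.00 against 0.25 to 0.61 on the others. The calls rest on arrays 1, 2 and 4 of NT1p12/TBVp12: when any 1 of these was left out, the same 5 members were called, namely Psma1, Psma2, Psmb1, Psmc4 and Psmd11, and 0 were lower. Calls over all genes fell as well, from 1000 higher and 868 lower to 183 to 210 higher and 59 to 115 lower. These 5 kept the call with each of the 13 arrays left out in turn, while Psmd5 kept it in 4, Psmd4 in 3, Psme1 in 2 and Psmb8 in 1. Of the 5, whole numbers were 7 of 13 values for Psma1, 5 of 13 for Psma2, 11 of 13 for Psmb1 and Psmc4, and 11 of 26 for Psmd11. Lost decimals alter the spread between repeats on which the calls rest. Only Psmd11 had a probe without whole numbers, with a difference of 0.73. With every array scaled to a common spread, 7 members were called higher and 0 lower, and over all 7264 genes the calls fell to 408 higher and 154 lower. Over probes that held no whole number, 5 of 16 members were called higher and 2 lower, beside 377 and 796 of 4666 genes. There the members' median difference was 0.05, with 8 of 16 above 0. In most rows whole numbers follow the first value of size 1 or more, so this choice also leaves out most probes with large ratios. The lower median cannot be told apart from that selection.

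Within NT1p14/TBVp13 alone, limma called 10 of 34 members above 0, where 10.3% of genes were, and 3 below, where 8.92% were. Those above were Psma1 at 1.20 (SE 0.18), Psma2, Psmb1, Psmb4, Psmd1, Psmd6, Psmd11, Psme1, Psme4 at 0.84 (SE 0.23) and Psmg4 at 0.41 (SE 0.12). Those below were the core subunits Psma4 at -0.46 (SE 0.13), Psmb8 at -0.38 (SE 0.11) and Psmb11 at -0.46 (SE 0.11). Without array 4 of this pair 2 members were called in all, and without array 5 there was 1. Leaving out array 2 of it, array 1 or 2 of NT1p12/TBVp12, or any array of the other 2 pairs left 5 to 7, and a dye term for each pair or scaled arrays left 0. Shares over all genes in these further fits are not given here, so the changes are not read as particular to proteasome genes.

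Within NT1p12/TBVp12, 26 of 35 members were below 0, but 1 of 34 was called lower, Psmd11 at -0.71 (limma adjusted p = 0.044), where 0.867% of genes were called lower. None of 34 was called higher, where 0.0413% of genes were. Without array 3 of that pair 8 members were called and without array 4 of NT1p14/TBVp13 there were 2. The call held without array 1 or 5 of NT1p14/TBVp13, and without any other array there were 0. For these fits too the shares over all genes are not given, and the changes are not read as particular to the members. Within NT1 1/TBV2, on 2 arrays, 0 members were called higher, where 0.0138% of genes were, and 0 lower, where the share of genes was 0. Its largest ratios were those of Psme1 at 1.00, Psme4 at 0.64 and Psmg4 at 0.59, while the 19S class had a median of -0.03 and the 20S core of 0.12. In NT1p12/TBVp13 the medians were 0.00 for the 20S core and -0.05 for the 19S class, and the 5 core genes called higher above were listed at 0 on both arrays.

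Across the 35 members the ratios in NT1p14/TBVp13 and NT1p12/TBVp12 correlated at -0.70, beside -0.49 over all 7968 genes. For NT1p14/TBVp13 and NT1 1/TBV2 the values were 0.55 and 0.11, and for NT1p12/TBVp12 and NT1 1/TBV2 they were -0.12 and 0.01. Points within a pair share their arrays, and these values are descriptions.

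Other genes of the ubiquitin pathway were given by a list of 39, of which 19 were on the array and 12 were tested over arrays. Their median difference between the pairs was 0.16, with 2 of 12 higher and 1 lower, where 13.8% and 11.9% of all genes were. The higher ones were Rbx1, a subunit of cullin ubiquitin ligases, at 0.84 (SE 0.24, limma adjusted p = 0.033), and Skp1, an adaptor of such ligases, at 0.93 (SE 0.30, adjusted p = 0.044). Lower was Nfe2l2, a stress-responsive transcription factor, at -0.48 (SE 0.15, adjusted p = 0.038). Its relative Nfe2l1, the factor known to raise proteasome genes when the proteasome is inhibited, was at -0.34 (SE 0.27, adjusted p = 0.36). On the list for MHC class I processing and interferon, 0 of 4 genes tested were called in either direction, with a median of 0.19. Its members B2m and Tap1 had differences of -0.09 (SE 0.31) and 0.73 (SE 0.28, adjusted p = 0.085).

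Large lists outside the pathway moved with the pairs as well, beside 13.8% of all genes higher and 11.9% lower. Of 34 cytosolic ribosomal protein genes 19 were higher and 2 lower in NT1p14/TBVp13 than in NT1p12/TBVp12, with a median difference of 1.05, and their array medians reached 1.00 and fell to -0.75. Of 14 fibroblast marker genes tested, from 20 listed and 15 on the array, 8 were higher and 0 lower, with a median of 0.94. Among them were Acta2 at 1.87 (SE 0.30), Sparc at 1.77 (SE 0.34) and Col1a1 at 1.52 (SE 0.24). Markers without a call included Dcn at -0.34 (SE 0.22), Col6a1 at -0.20 (SE 0.22) and Thy1 at 0.12 (SE 0.40). The fibroblast median ranged over arrays from 0.02 to 0.90 in NT1p14/TBVp13 and from -0.49 to -0.08 in NT1p12/TBVp12, and in NT1 1/TBV2 it was -0.59 and -0.49 while the 20S median was 0.19 and 0.00. Of 8 stem cell markers tested, from 11 listed, 4 were higher, among them Pou5f1 at 0.77 (SE 0.22) and Zfp42 at 1.17 (SE 0.29), and 6 of the 8 had ratios below 0 in all 3 pairs. With NT1p12/TBVp12 turned, the medians were 0.03 for the ribosomal list, 0.25 for the fibroblast list, -0.77 for the stem cell list, 0.08 for the other ubiquitin pathway genes and -0.02 for the MHC list, and 4 stem cell markers were called lower and 0 genes of these lists otherwise. The part of these lists in the proteasome differences was not tested.

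**Figure D4:**
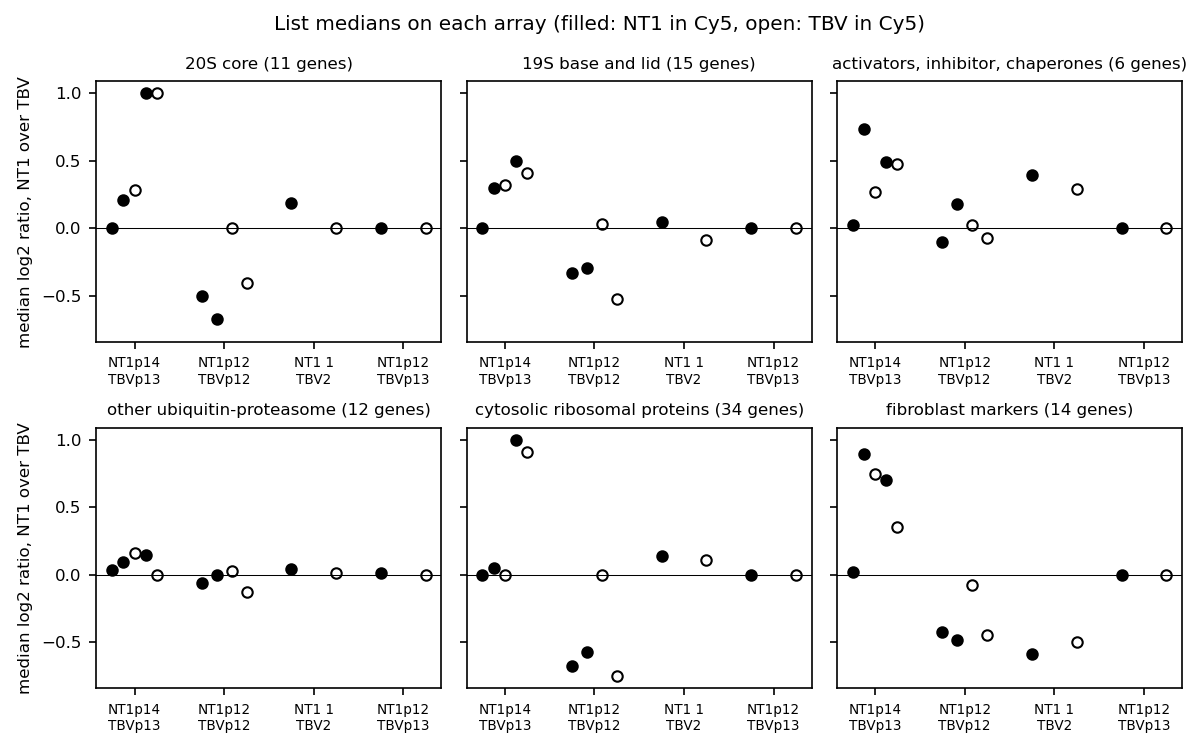
Median log2 ratio of NT1 over TBV (y axis) of the genes of 6 lists on each of the 13 arrays, grouped by source pair (x axis), with NT1 in Cy5 as filled points and TBV in Cy5 as open points. The 20S medians reach 1.00 in NT1p14/TBVp13 and -0.67 in NT1p12/TBVp12, the ribosomal medians lie alike, the other ubiquitin pathway genes stay between -0.13 and 0.16, and of the 6 lists only the fibroblast list is far below 0 in NT1 1/TBV2.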

How the data were processed

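Total RNA of NT1 and TBV sources was hybridised on 13 two-colour arrays. The deposited table holds 1 signed value per probe and array for 20205 probes, treated here as a log2 ratio of Cy5 over Cy3. How the authors normalised it, its log base and its numerator are not given in the sources used here. In most rows whole numbers follow the first value of size 1 or more: of 19859 values that large, 79 had decimals. In 14 of 8264 rows with a whole number the first was 0.

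Gene symbols came from the platform annotation, which gave 1 symbol to 11723 probes, several to 806 and none to 7676. All 43 proteasome symbols were found in the RefSeq table. Each array was centred on its median and turned to NT1 over TBV. A pair value is the mean of both dye orientations, and probes of a gene were averaged. The 3 independent pair values were tested against 0 with limma 3.58.1 in R 4.3.3 (residual degrees of freedom 2, 7968 genes). The difference between pairs, the values within pairs and the dye effect came from 1 limma fit on 13 arrays, with a coefficient per pair and 1 dye term (residual degrees of freedom up to 8), over 7264 genes with a value in each orientation of every pair. Tests were two-sided, with Benjamini-Hochberg adjustment over all genes and a threshold of 0.05. Both fits were also run on simulated data with known changes, whose outcome is not given here. The lack of calls over pairs is therefore not read as a lack of differences. Arrays of a pair were not paired across groups. Plots used matplotlib 3.10.9 (Python 3.11.15). Precision is limited by the number of arrays and pairs, and the table holds no intensities.

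Named with values were the 10 largest called differences between pairs, members with 1 sign in all pairs, the smallest p in each direction, catalytic and inducible subunits, activators, inhibitor, chaperones, deubiquitinase and ubiquitin receptors. The other members tested were added to account for all. Alternatives covered pairs, dye orientation, centring, scaling, probes, missing and whole values, thresholds, variance moderation, signs and leaving out arrays. The members and lists were chosen with earlier results of these data known.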

Additional observations from a re-analysis of the deposited data

Results flagged for a closer look

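Over all 7264 genes, 13.8% were called higher in NT1p14/TBVp13 than in NT1p12/TBVp12 and 11.9% lower (limma, 1 dye term). The same difference was tested itself in 34 proteasome genes and passed in 16, 14 higher and 2 lower. Among the core genes it was 2.20 for Psma6, 1.99 for Psmb4, 1.77 for Psmb1, 1.76 for Psma1, 1.35 for Psma2, -0.51 for Psmb8 and -0.66 for Psma4. In the 19S class it was 1.57 for Psmd4, 1.47 for Psmd1, 1.20 for Psmc4, 1.18 for Psmd6, 1.16 for Psmd11, 0.89 for Psmc6 and 0.46 for Psmd5. It was 0.98 for Psme1 and 0.58 for Psmg1. All 16 lost the call with a dye term for each pair or with the sign of NT1p12/TBVp12 turned. Calls over all 7264 genes fell there as well, to 8 higher and 1 lower and to 5 higher and 18 lower.

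An array far from the others of its pair was found in 6 of 45 groups of 4 or 5 arrays tested by Dixon's criterion, which chance meets in about 1 group of 20 of continuous values. That rate does not hold for groups of whole numbers, where 1 array that differs is enough to meet it. On array 3 of NT1p12/TBVp12, Psmb1 and Psmc4 were listed at 0 where the other 3 arrays were at -1, and Psmd6 was at 0.37 where the others lay from -0.90 to -0.76. Array 4 of that pair had Psma6 at -2, with the others at -1. On array 1 of NT1p14/TBVp13, Psma1 was at 2 with the others at 1, and Psmd4 at 0 with the others at 1. In 5 of these 6 groups all values were whole numbers.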

How the results depend on the processing

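In NT1 against TBV over pairs, 0 members were called under each of 29 alternatives, among them the 13 arrays with the source pair as a random block, which called 7 of 7264 genes. The class medians there stayed within the spread between pairs, except that of the activators, inhibitor and chaperones, at -0.026 with NT1 1/TBV2 turned. That spread is wide, since the pairs had opposite signs. Over the alternatives the medians ran from -0.27 to 0.24 for the 20S core and from -0.18 to 0.15 for the 19S class. For the activators, inhibitor and chaperones the highest was 0.34. The difference between pairs, with 16 calls of 34, depended on more choices. It fell to 0 calls with a dye term for each pair and with NT1p12/TBVp12 turned (an alternative added after seeing the data). It fell to 7 with scaled arrays and to 3 at an adjusted p under 0.01. The share over all genes at 0.01 is not given here, so that count is not read as particular to the members. With only probes without whole numbers fewer members were tested, and 7 of 16 were called (5 higher, 2 lower, median 0.05). Of 4666 genes, 377 were called higher and 796 lower there. Turned, the medians were -0.010 for the 20S core and -0.056 for the 19S class, and Psma6 reversed to -0.30, Psmb4 to -0.010, Psmd4 to -0.10, Psmc4 to -0.30 and Psmd11 to -0.27. The 20S median difference was -0.51 over the 3 genes without whole numbers and 1.35 over the 9 genes on all 13 arrays. Keeping only probes without whole numbers also leaves out most probes with large ratios, so it selects on the size of the ratio. The 19S median difference was 0.78 over the 17 genes that can be fitted, in a fit that also takes in the further probe of Psmd5. Within NT1p14/TBVp13 the 13 calls became 0 with scaled arrays, at 0.01 and with a dye term for each pair. They became 5 of 16 members without whole numbers and 8 of 39 over all genes that can be fitted. Within NT1p12/TBVp12 the 1 call became 0 with scaled arrays, at 0.01, with a dye term for each pair and over all genes that can be fitted, and 2 at an adjusted p under 0.1. The dye call became 0 with scaled arrays and at 0.01, and 2 at 0.1 and without whole numbers. Leaving out each array gave 5 to 20 calls for the difference, 1 to 16 within NT1p14/TBVp13, 0 to 8 within NT1p12/TBVp12 and 0 to 1 for the dye. Within pairs and for the dye, shares over all genes under these alternatives are not given here. The causes were not tested. A pair of 2 arrays kept 1 orientation when 1 was left out. No paired analysis was possible because replicate numbers were given in accession order and pair no samples. Values have no measure of signal over background, which limits what can be said of dim probes.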
